A study of Mus musculus with 23 samples.

Results

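The genes described here were 8 genes of cholesterol synthesis and its control, chosen by symbol from the deposited TPM table of 17644 genes and matched to the count table by gene identifier. They were Srebf2, Insig1, Hmgcs1, Idi1, Fdps, Sqle, Lss, and Dhcr7. All 8 were present, and all 8 passed the filter that left 14364 genes for testing. RNA-Seq had been carried out on marrow-depleted femur and tibia from 23 female C57BL6/N mice at 11 weeks of age, with 1 library per mouse. WT Control mice (n = 5) were nondiabetic WT mice given saline. WT T1D mice (n = 6) were WT mice with type 1 diabetes (T1D) of 3 weeks, induced by intraperitoneal streptozotocin, a toxin of insulin-producing β cells, at 100 mg/kg per injection after an overnight fast, repeated on day 2 and again on day 4 where fed glucose had stayed low. KO Control (n = 6) and KO T1D (n = 6) were mice labelled Sarm1-KO, a line bred to lack Sarm1 in all tissues, with the same saline or streptozotocin treatment. WT mice included littermates and purchased mice of the same background. Marrow had been spun out of the bones, so blood-forming and stromal cells that stay attached were still part of each sample.

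Cells make cholesterol from acetyl-CoA through the mevalonate pathway, which first builds isoprenoid units, joins them into farnesyl diphosphate, and then forms and trims the sterol ring. When sterols in the endoplasmic reticulum run low, SCAP carries the transcription factor SREBP2 to the Golgi, where proteases release its active fragment and genes of synthesis and uptake are transcribed together. In bone, the same pathway supplies membranes and prenyl groups, and its farnesyl diphosphate synthase is the target of the nitrogen-containing bisphosphonates that block osteoclasts.

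Depth was even, with total counts of 16938101 to 20135592 per mouse. The defining markers of bone cells were present in every library, but the summed level of 14 osteoblast and osteocyte markers ranged from 61400 to 119500 CPM (counts scaled to a common library size) in WT Control and from 7305 to 86200 in WT T1D mice. The lowest osteoblast and osteocyte scores of the 23 mice belonged to A3905 and A3906, both WT T1D, at 7.26 and 7.11 on a mean log2(CPM + 0.5) scale, against 8.70 to 9.29 in the other WT T1D mice. Member results and named changes in WT that rest on them are given with and without both. In bulk RNA, fewer cells of a type and less RNA per cell cannot be told apart. Sarm1 itself was near the limit of detection, with 5 to 32 counts per mouse. Its mean was 1.17 ± 0.403 CPM (SD, n = 5) in WT Control, 0.687 ± 0.293 (SD, n = 6) in WT T1D, 0.799 ± 0.503 (SD, n = 6) in KO Control, and 1.19 ± 0.259 (SD, n = 6) in KO T1D. It did not pass the threshold between genotypes in Control (edgeR adjusted p = 0.999) or in T1D (0.281), and its direction differed between them, so the genotype is given as labelled. By qPCR, the paper reported low Sarm1 expression in bone that was significantly lower in knockout than in WT mice. By the mouse IDs in the labels, mice were divided here into an A17 series, with 1 WT Control and 3 WT T1D mice, and an A36 to A39 series with all others. What the ID numbers stand for is not given in the labels. Mice labelled KO had IDs A3670 to A3683 and A3766. WT mice of the second series had A3767 and A3903 to A3909. Genotype and ID block can therefore not be told apart in comparisons between genotypes, also within that series or with the series as a term.

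Of the members, 6 had promoter windows in the set of RefSeq windows used here, and Sqle and Fdps were not in that set. Each window ran from 250 bases before to 50 bases after the gene start on GRCm38.p6. Windows of the members with the largest changes in WT T1D bone and of the factor itself are shown, with the sterol regulatory element core TCACNCCAC and the NF-Y box CCAAT in capitals on either strand. They lay at chr13:119690101-119690400 for Hmgcs1, chr5:28071162-28071461 for Insig1, and chr15:82147019-82147318 for Srebf2, all on the plus strand.
Hmgcs1: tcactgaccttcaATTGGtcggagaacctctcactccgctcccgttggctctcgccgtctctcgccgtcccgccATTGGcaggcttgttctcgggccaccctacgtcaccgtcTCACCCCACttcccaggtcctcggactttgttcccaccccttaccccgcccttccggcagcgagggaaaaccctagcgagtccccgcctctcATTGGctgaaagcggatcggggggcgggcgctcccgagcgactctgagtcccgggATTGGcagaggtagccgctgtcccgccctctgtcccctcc
Insig1: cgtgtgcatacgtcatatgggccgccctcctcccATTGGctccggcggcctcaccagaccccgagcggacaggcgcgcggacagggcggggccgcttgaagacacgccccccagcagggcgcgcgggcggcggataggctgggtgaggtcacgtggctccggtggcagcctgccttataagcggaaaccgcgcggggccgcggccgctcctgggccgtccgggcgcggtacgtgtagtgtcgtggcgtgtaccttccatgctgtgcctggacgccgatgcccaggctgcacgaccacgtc
Srebf2: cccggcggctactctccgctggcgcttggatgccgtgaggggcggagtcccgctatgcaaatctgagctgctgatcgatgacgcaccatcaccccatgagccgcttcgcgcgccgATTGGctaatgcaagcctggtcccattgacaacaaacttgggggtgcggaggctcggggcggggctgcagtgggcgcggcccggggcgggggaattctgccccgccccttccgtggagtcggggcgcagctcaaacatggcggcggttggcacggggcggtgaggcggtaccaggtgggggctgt
The core TCACNCCAC occurred in 1 of the 8 windows of these 6 genes, that of Hmgcs1, and in 1.24% of all 32851 windows. CCAAT occurred in 6 of the 8 member windows and in 37.4% of all windows, and Hmgcs1 held 4 matches. The Sp1 box GGGCGG was found in 7 of the 8 windows and in 35.7% of all. CANNTG, the E box, reads the same on both strands and was found in all 8 windows and in 72.3% of all. In the member windows, 1 pair of matches to different motifs shared bases, a CCAAT and a CANNTG match in Hmgcs1. These are matches of letters and were not tested for binding.

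Compared per transcript length, Fdps had the highest level of the 8 genes, with a mean of 33.2 TPM (a level scaled by transcript length and library) over all 23 mice. Srebf2 followed with 30.5 TPM. Insig1 had 12.9, Dhcr7 9.39, Hmgcs1 8.15, Idi1 6.10, Sqle 6.09, and Lss 1.59 TPM. The ranges over mice of neighbours in this order overlapped, except those of Sqle at 3.89 to 7.93 TPM and Lss at 0.67 to 2.71 TPM. Within each mouse, Lss had the lowest TPM of the members.

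None of the 8 genes passed the threshold for a change with T1D in WT bone (edgeR, adjusted p under 0.05), a comparison in which 334 of all 14364 tested genes did (2.33%, and 0.828% lower in T1D). That total turned on single mice, with 0 genes called without A3767 or A3907, 3 without A3903, 7 without A3905, 963 without A1764, and 1262 without A3909, and 0 without A3905 and A3906 together. Of the 8, 7 had lower estimates in T1D, or 3 when A3905 and A3906 were left out. With all mice the median log2 fold change was -0.0955, beside -0.0111 for all genes, of which 51.9% were lower. The ranges of WT Control and WT T1D mice overlapped for all 8, as they did for all but 2.19% of all genes. The size and the spread are given gene by gene from the regulators to the last enzymes, in CPM.

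Srebf2 encodes SREBP2, the factor that turns on the pathway. Its level was 108, 101, 111, 109, and 116 CPM in the WT Control mice and from 72.7 through a median of 105 to 116 CPM in WT T1D mice. The 2 lowest values, 72.7 and 80.8 CPM, were those of A3905 and A3906 and were below all other mice, while the other WT T1D mice lay at 98.2 CPM or above. The estimate was -0.14 (SE 0.11, 95% interval -0.37 to 0.09) on the log2 scale, with an edgeR adjusted p of 0.466. Insig1, which holds SCAP in the endoplasmic reticulum and is itself switched on by SREBP2, ranged most among the regulators. It had 18.3, 27.6, 25.5, 22.2, and 31.0 CPM in WT Control and 11.2, 23.7, and 28.4 CPM as lowest, median, and highest in WT T1D. Again A3905 and A3906 were the lowest of all 23 mice, at 12.3 and 11.2 CPM. The other WT T1D mice fell within the control range, and the estimate of -0.24 (SE 0.20, 95% interval -0.65 to 0.17) had an edgeR adjusted p of 0.503.

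Hmgcs1, the cytosolic HMG-CoA synthase of the early mevalonate pathway, had the estimate furthest from 0. The WT Control mice had 18.0, 22.4, 25.5, 23.3, and 25.2 CPM. WT T1D mice ranged from 13.1 through a median of 18.2 to 24.3 CPM. Of the 6 diabetic mice, 5 were at or below 18.3 CPM, close to or under the lowest control, A1757, and the groups overlapped through A1757 and the diabetic A1764. Mean levels were 22.9 ± 3.02 (SD, n = 5) and 18.1 ± 3.62 (SD, n = 6) CPM, a ratio of 0.790 (95% interval 0.665 to 0.938). The log2 change of -0.34 (SE 0.12) had an unadjusted p of 0.00922 in edgeR but an adjusted p of 0.102, and it is not a call. Leaving out A1757 gave -0.42 with an adjusted p of 0.0484, and leaving out A1764 gave -0.44 with an adjusted p of 0.0283, so the side of the threshold turned on single mice. Without A3905 and A3906 the estimate was -0.22 with an adjusted p of 0.5.

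Idi1, the isomerase that interconverts the isoprenoid building blocks, was the only member with a higher estimate in WT T1D bone. Its WT Control values were 8.32, 14.5, 13.4, 9.64, and 9.42 CPM, and WT T1D values ran from 7.81 through a median of 13.6 to 17.5 CPM. Values spread widely in both groups. The pooled SD of 0.42 on log2 CPM was at the 85th percentile of all genes, and the interval of the change reached from -0.27 to 0.70 around 0.22 (edgeR adjusted p = 0.62). Fdps, farnesyl diphosphate synthase, had 22.7, 35.6, 26.4, 28.8, and 29.8 CPM in WT Control and 22.6, 25.6, and 32.0 CPM as lowest, median, and highest in WT T1D. Of these mice, 1 control and 3 diabetic mice lay below the rest, and the estimate was -0.11 (95% interval -0.34 to 0.11, edgeR adjusted p = 0.555).

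The 3 enzymes of the sterol arm had the estimates closest to 0 in WT mice. Sqle, squalene epoxidase, which puts the first oxygen on squalene, had means of 11.3 ± 1.06 (SD, n = 5) CPM in WT Control and 10.9 ± 1.50 (SD, n = 6) in WT T1D. The diabetic mice stretched from 9.52 to 13.7 CPM, on both sides of the control range of 9.86 to 12.5 CPM. Lss, which folds the squalene epoxide into lanosterol, had means of 6.03 ± 0.871 (SD, n = 5) and 5.81 ± 1.33 (SD, n = 6) CPM and rested on only 63 to 160 counts per mouse. Its lowest value of all, 3.64 CPM, was in A3906. Dhcr7, the reductase of the last step to cholesterol, had means of 16.7 ± 2.29 (SD, n = 5) and 15.8 ± 2.66 (SD, n = 6) CPM. Its lowest value, 12.4 CPM, was also in A3906. The log2 estimates were -0.04 for Sqle, -0.05 for Lss, and -0.08 for Dhcr7, with edgeR adjusted p values of 0.879, 0.894, and 0.747. Intervals for the 8 genes reached 0.221 to 0.484 to either side of the estimate, before any adjustment over genes.

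**Figure D1:**
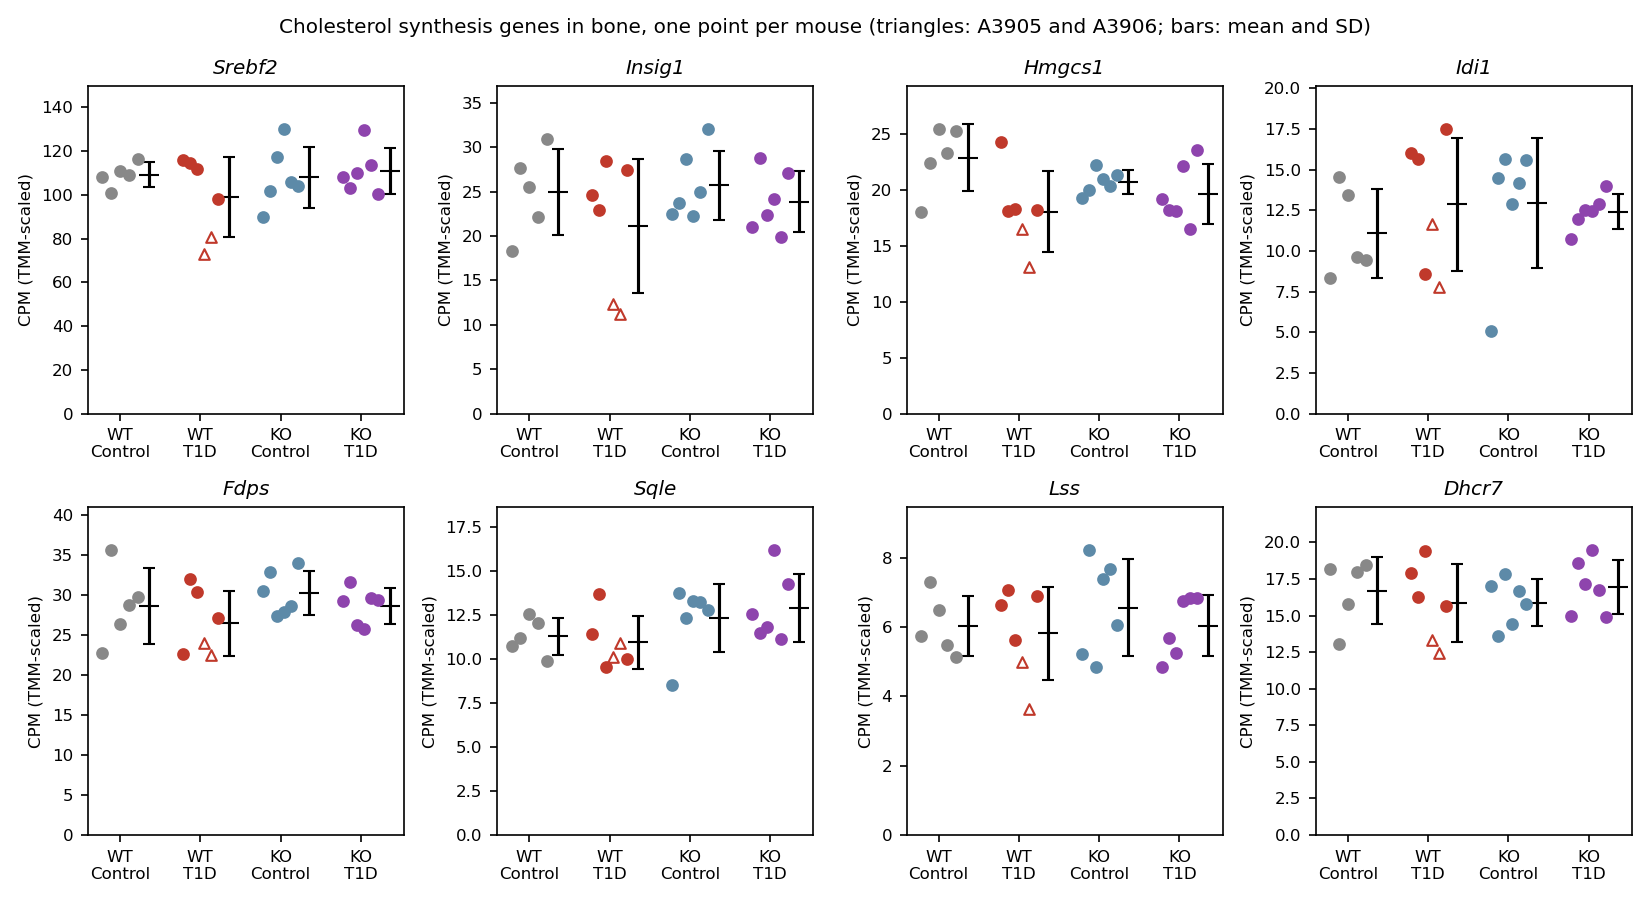
Each panel plots one gene as CPM (y axis, from 0) for every mouse in the 4 groups, with triangles for A3905 and A3906 and bars for mean and SD. The triangles lie at the bottom of WT T1D for Srebf2 (72.7 and 80.8 CPM) and Insig1 (12.3 and 11.2 CPM), while the groups overlap in every panel.

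In mice labelled KO, 0 of the 8 genes passed the threshold with T1D, and 0 of all genes did (0%, edgeR). DESeq2 and limma on TPM also called 0 genes. At an unadjusted p under 0.05 there were 452 genes and 0 members. Estimates ran from -0.12 for Lss to 0.10 for Dhcr7, with a median of -0.0703 beside -0.00157 for all genes, and 5 of the 8 were lower. Hmgcs1 had a mean of 20.7 ± 1.06 (SD, n = 6) CPM in KO Control and 19.6 ± 2.69 (SD, n = 6) in KO T1D. The KO T1D values of 16.5, 18.7, and 23.6 CPM as lowest, median, and highest enclosed the KO Control range of 19.3 to 22.3 CPM. Srebf2 had means of 108 ± 13.9 (SD, n = 6) and 111 ± 10.4 (SD, n = 6) CPM, and Insig1 of 25.7 ± 3.91 (SD, n = 6) and 23.9 ± 3.48 (SD, n = 6) CPM. Both pairs of groups overlapped, as did those of the other members, and ranges were apart for 0.258% of all genes. Idi1 and Sqle each had a single low KO Control mouse, A3679, at 5.09 and 8.52 CPM.

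**Figure D2:**
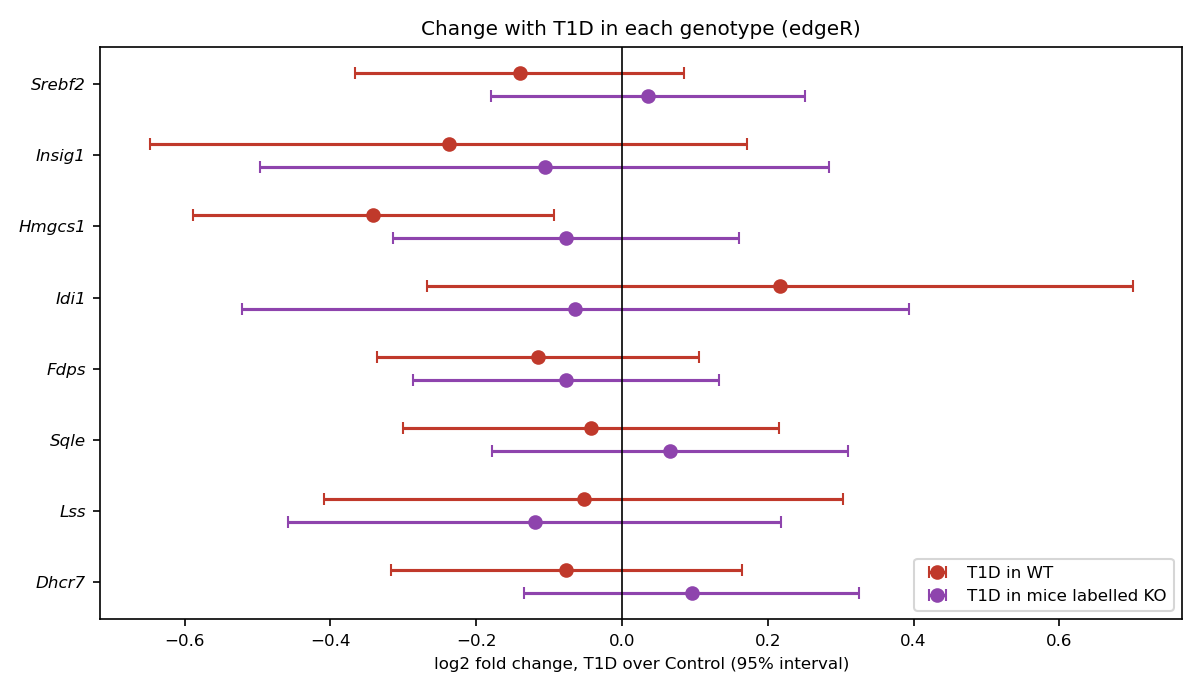
Points are log2 fold changes of T1D over Control from edgeR (x axis) for each gene in WT mice and in mice labelled KO, with 95% intervals. The Hmgcs1 interval in WT mice, -0.59 to -0.09, is the one that lies below 0, and its adjusted p was 0.102.

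The difference between the genotypes in their response to T1D was tested as an interaction, and 0 of the 8 members and 0 of all genes (0%, edgeR) passed, with 1467 genes and 0 members under an unadjusted p of 0.05. DESeq2 called 0 genes and limma on TPM 2, none of them a member. Of the 8 interaction estimates, 6 were above 0, with a median of 0.12. For Hmgcs1 the estimate was 0.26 (95% interval -0.08 to 0.61, edgeR adjusted p = 0.568), so the larger estimate in WT mice was not shown to differ from that in mice labelled KO. Averaged over genotypes, 0 members passed beside 0.111% of all genes, and Hmgcs1 was closest, at -0.21 with an edgeR adjusted p of 0.215. Between genotypes without diabetes, 0 members passed beside 0.0278% of genes, and estimates ran from -0.15 for Hmgcs1 to 0.23 for Idi1. Between KO T1D and WT T1D, 0 members passed beside 0.0905% of genes. Estimates were higher in KO T1D for 7 of the 8, led by Sqle at 0.24 (SE 0.12, edgeR adjusted p = 0.311), whose mean was 12.9 ± 1.95 (SD, n = 6) CPM in KO T1D. These comparisons share groups, so the lower estimates in WT T1D and the higher ones of KO T1D over WT T1D use the same mice. Of all genes, 49% had an interaction estimate below 0 and 48.7% were lower in KO T1D than in WT T1D. When A3905 and A3906 were left out, 4 of the 8 interaction estimates were below 0. In that fit, 5 of the 8 members were lower in KO T1D than in WT T1D.

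Most of the lowest values belonged to a pair of mice. A3906 had the lowest level of all 23 mice for 5 of the 8 members, namely Hmgcs1, Fdps, Lss, Insig1, and Dhcr7, and A3905 for Srebf2. Relative to the WT Control mean, A3906 was lower for 8 of 8 members and A3905 for 7 of 8, whereas the other WT T1D mice were lower for 1 to 5. A low count of this kind was not limited to diabetic mice, since WT Control A1757 was lower for 7 of 8, and KO Control A3679 and KO T1D A3681 were lower than the KO Control mean for 6 of 8. A3905 and A3906 had the highest erythroid scores, 10.4 and 10.5, where the other mice reached at most 10.03. They were also apart from the other 21 mice in adipocyte markers (4.84 and 4.98, against at most 3.88), in neutrophil markers (11.2 and 11.1, against at most 10.9), and in B cell markers (3.10 and 3.39, against 4.92 or more). Over the full lists, 17 of 17 erythroid markers were higher in WT T1D, 8 of them called, and 12 of 14 osteoblast and osteocyte markers were lower, 2 of them called. Higher estimates were found for 6 of 7 adipocyte markers, 1 of them called, and 10 of 13 neutrophil markers, 0 called. Of B cell markers, 6 of 8 were lower, 0 called. Among all genes 2.33% were called, and 0 when A3905 and A3906 were left out. Without A3905 and A3906 the change with T1D in WT became 0.01 for Srebf2, 0.05 for Insig1, 0.12 for Lss, and 0.05 for Dhcr7, and the median over the members became 0.0289. The erythroid score was 9.273 to 9.803 in WT Control and 9.787 to 10.52 in WT T1D mice. Score and T1D therefore nearly coincide in WT, and a fit with both can hardly separate them. With the score as a covariate, the estimate was -0.10 for Hmgcs1 and 0.32 for Insig1, and 0 of all genes were called. The part of these cell type markers in the member values was not tested.

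**Figure D3:**
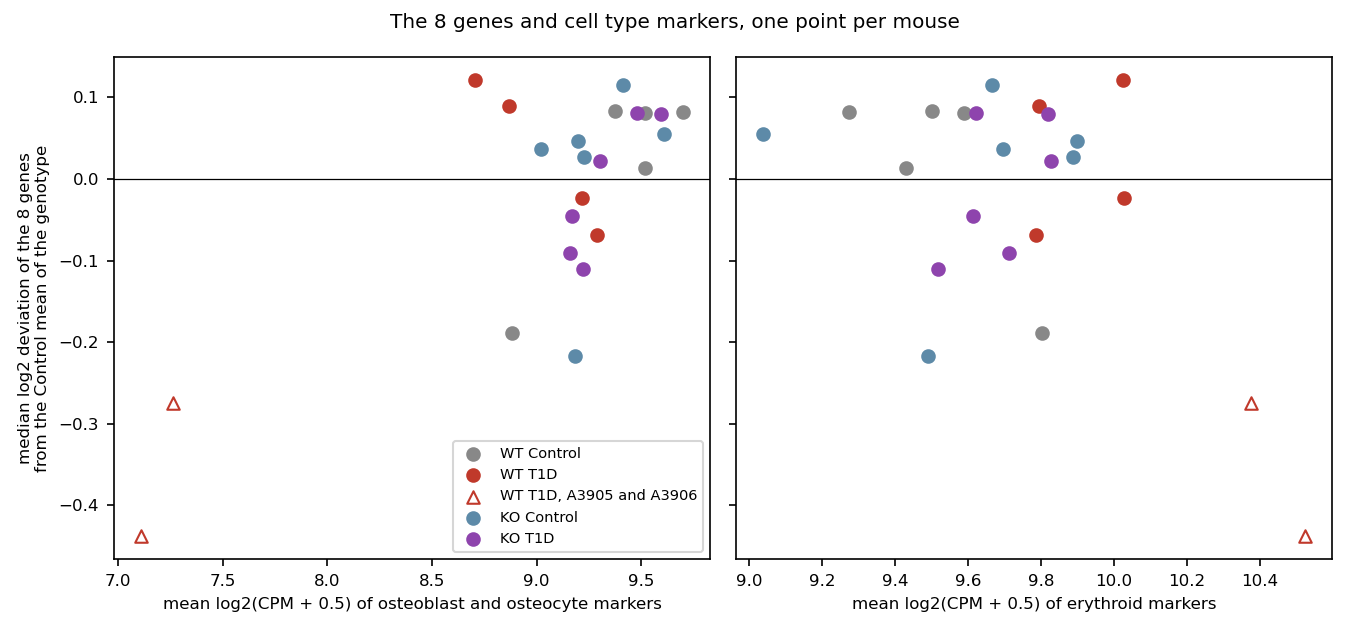
Each point is one mouse, with the mean log2(CPM + 0.5) of osteoblast and osteocyte markers (left) or erythroid markers (right) on the x axis and the median log2 deviation of the 8 genes from the Control mean of its genotype on the y axis. A3905 and A3906 (triangles, osteoblast scores 7.26 and 7.11) lie apart from the other 21 mice on the x axis and have the lowest median deviations, -0.27 and -0.44, with A3679 (-0.22) and A1757 (-0.19) next.

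The covariation of the members was measured after centring within groups. Across the 28 pairs of members the median Pearson r over 23 mice was 0.40, from -0.15 to 0.68, and 23 were positive. Without A3905 and A3906 the median was 0.061, from -0.547 for Lss and Dhcr7 to 0.656 for Sqle and Idi1, and 17 were positive. The closest pair over all 23 mice was Hmgcs1 and Insig1, with r = 0.68 (permutation p = 0.00127, adjusted over the 28 pairs 0.0356) and rho = 0.705 (permutation p = 0.00061, adjusted 0.0171). It stayed at r = 0.557 without the 2 mice furthest from the median of Hmgcs1 and at 0.493 without A3905 and A3906. Only this pair passed the adjustment. Of 14356 other genes, those that followed the mean of the 8 members most closely were Smoc2, Dcn, Scd2, Bambi, and Sema3b. Their r was 0.888, 0.883, 0.880, 0.879, and 0.875 over 23 mice, the highest values picked from all these genes. Without A3905 and A3906 their r was 0.638 to 0.696, and they ranked 17, 10, 24, 55, and 61. Dcn encodes decorin, a matrix proteoglycan, and Scd2 a fatty acid desaturase.

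Other genes of the pathway were counted in lists around the members. Among 5 tested enzymes from acetyl-CoA to farnesyl diphosphate, 0 passed in either direction with T1D in WT, and the median change was -0.0443. Mevalonate kinase, Mvk, had -0.16 (edgeR adjusted p = 0.649). Of 10 enzymes from farnesyl diphosphate to cholesterol, 0 passed, and 8 were lower with a median of -0.104. Cyp51, the lanosterol demethylase, had -0.37 (edgeR adjusted p = 0.194), or -0.13 without A3905 and A3906, and Lbr, a sterol reductase that is also the lamin B receptor, 0.46 (0.309). Of 8 tested genes of SREBP processing and enzyme turnover, 0 passed, with Insig2 at -0.26 (edgeR adjusted p = 0.18) and Srebf1 at -0.13 (0.407).

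Of 6 tested SREBP2 targets for uptake and transport, 0 passed. Fads2, a fatty acid desaturase, had -0.22 (edgeR adjusted p = 0.299). Of 11 genes of the nonsterol branch, 0 passed, with Pdss1 at 0.36 (edgeR adjusted p = 0.185) and Fntb, a farnesyltransferase subunit, at 0.28 (0.0937). Of 14 LXR targets and efflux genes 1 passed, Abca1, the cholesterol exporter. Abca1 was the 1 call among the 64 tested genes of all these lists, beside 2.33% of all genes. It was 59.4 to 88.5 CPM in WT Control and 36.4 to 62.3 CPM in WT T1D, and the change was -0.56 (SE 0.14, edgeR adjusted p = 0.0451), or -0.39 with an adjusted p of 0.292 without A3905 and A3906. This call was lost in 15 of the 23 fits that leave out 1 mouse, with estimates of -0.63 to -0.47 and adjusted p values of 0.0157 to 0.122. These were the fits without WT Control A3767, A3903, A3904, or A3907, without WT T1D A1787, A3905, or A3906, and without 8 of the 12 mice labelled KO. Abca1 passed in DESeq2 (DESeq2 adjusted p = 0.00657), where 6.98% of all genes were called. It passed with the series as a term (edgeR adjusted p = 0.0345), where 5.58% were called. It also passed with DESeq2 size factors in edgeR, with limma on TPM, and with A36 to A39 mice only. It did not pass without the filter on low counts (edgeR adjusted p = 0.053) or with the erythroid score as a covariate. The interaction for Abca1 was 0.23 (edgeR adjusted p = 0.661). Lcat and Ch25h had -0.76 (edgeR adjusted p = 0.105) and -0.80 (0.494), or -0.56 and -0.46 without A3905 and A3906, and Ch25h rested on 0 to 22 counts per mouse, with 0 in A3906. Of 10 SREBP1 targets of fatty acid synthesis, 0 passed, with Scd2 at -0.78 (edgeR adjusted p = 0.0578) and Thrsp at 0.92 (0.0781). Without A3905 and A3906 these were -0.46 (edgeR adjusted p = 0.32) and 0.46 (0.554), Mvk was at 0.04, and Fads2 at -0.02, Pdss1 at 0.20, and Fntb at 0.16. With all mice, Scd2 passed in DESeq2 (DESeq2 adjusted p = 0.0155) and with the series as a term (edgeR adjusted p = 0.0367). It also passed with limma on TPM and with A36 to A39 mice only. It did not pass without the filter on low counts (edgeR adjusted p = 0.0651), with DESeq2 size factors in edgeR (0.0569), or with the erythroid score. In mice labelled KO, 0 genes of these lists passed.

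**Figure D4:**
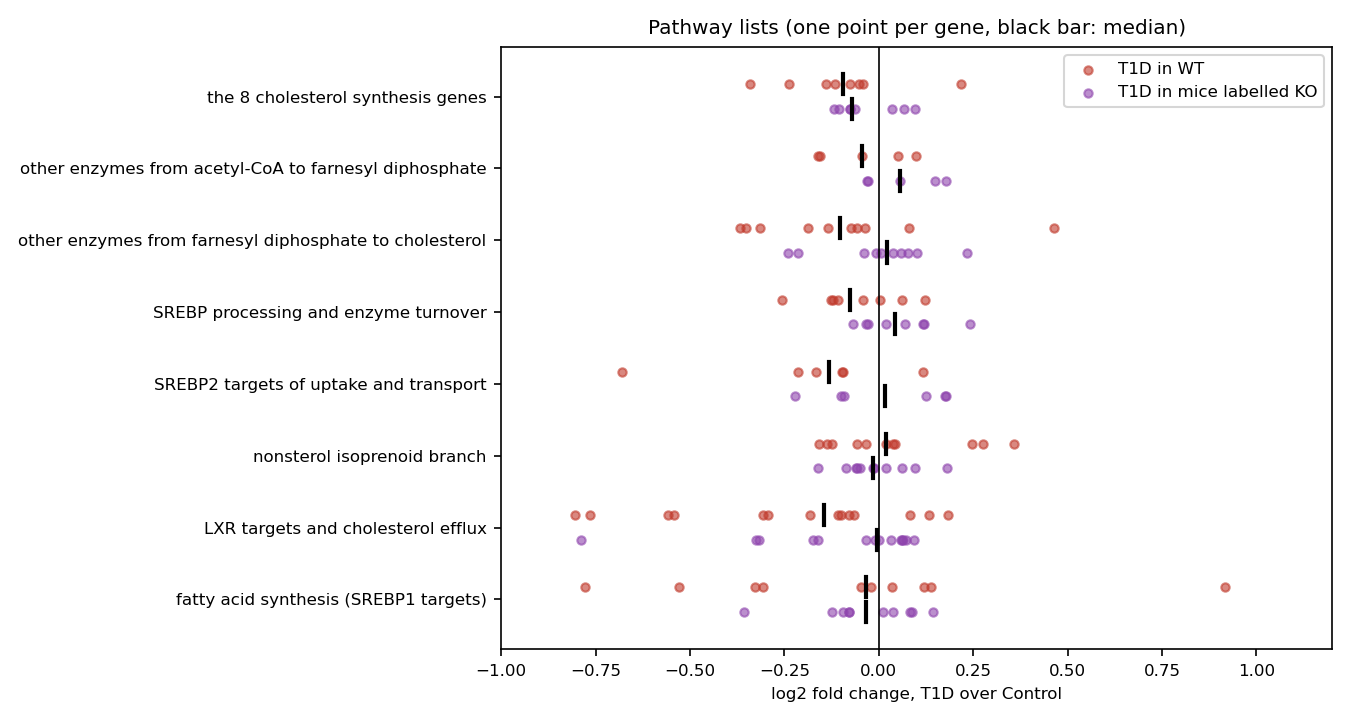
Points are single genes placed by log2 fold change of T1D over Control (x axis) for the 8 members and 7 other lists, in WT mice and in mice labelled KO, with a black bar at each median. The member medians are -0.0955 in WT and -0.0703 in mice labelled KO, and the widest spreads are in the LXR and fatty acid lists, with Ch25h (0 to 22 counts per mouse) at -0.80 and Thrsp at 0.92 in WT.

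Calls differed between ways of processing. On log2(TPM + 1), where unit, test, and scaling all changed together, limma called 4 of the 8 members in WT (Hmgcs1, Fdps, Srebf2, and Dhcr7), with Hmgcs1 at -0.58 (limma adjusted p = 0.0113). There 36% of all genes were called and the median gene moved by -0.24, against a member median of -0.36. With A36 to A39 mice only, in which A3905 and A3906 are 2 of 3 WT T1D mice, Hmgcs1 was -0.59 (edgeR adjusted p = 0.0102) and Srebf2 -0.37 (0.0452), where 15.5% of all genes were called. With the series as a term, 0 members passed, and Hmgcs1 was -0.38 (edgeR adjusted p = 0.0842). The A17 series held 1 WT Control mouse and was not fitted alone.

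**Figure D5:**
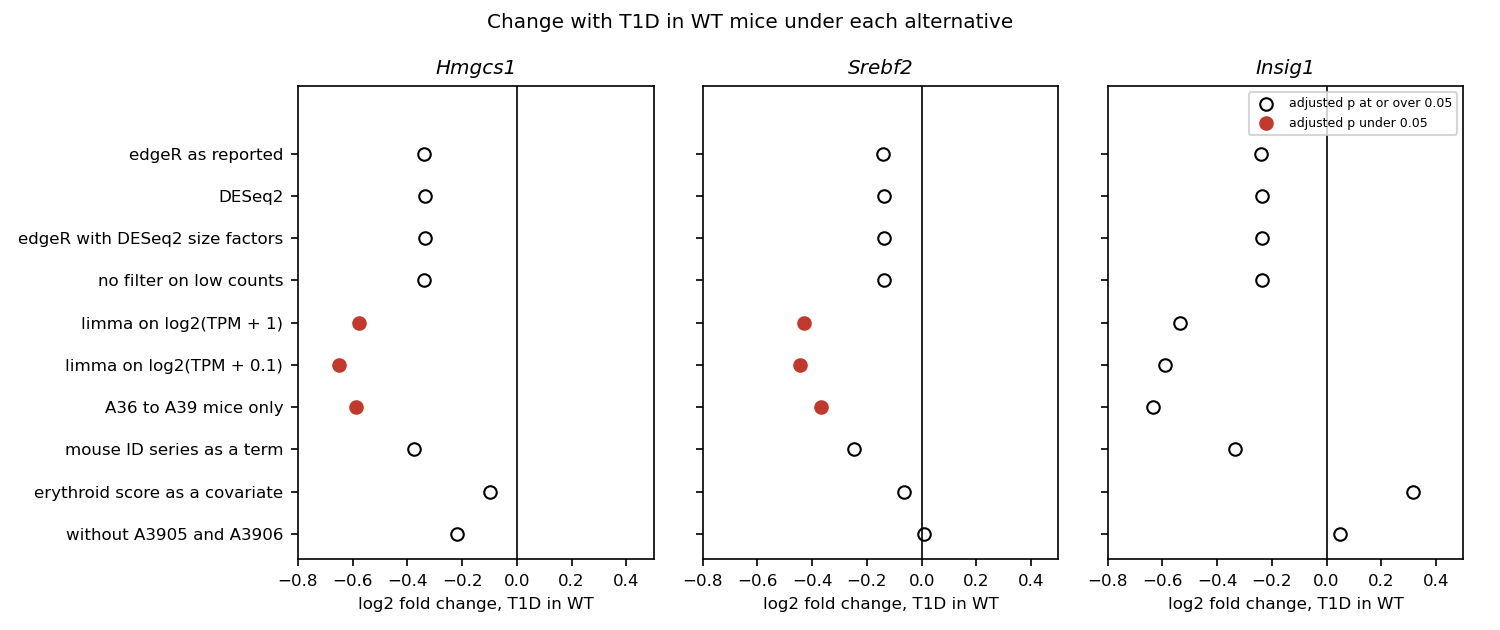
The x axis is the log2 fold change with T1D in WT mice for Hmgcs1, Srebf2, and Insig1 under each way of processing (rows), filled where the adjusted p was under 0.05. Hmgcs1 ran from -0.65 to -0.10, and Srebf2 and Insig1 were at 0.01 and 0.05 without A3905 and A3906.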

How the data were processed

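Bone RNA from 23 mice was measured by RNA-Seq of oligo dT selected, strand-marked libraries on a DNBSEQ platform. The sequencing provider cleaned the reads (SOAPnuke) and mapped them to GRCm38.p6 (HISAT, Bowtie2), with versions not given in the sources used here. The authors deposited RSEM expected counts, rounded to whole numbers, and TPM values, which are scaled by gene length and library. A gene entered the test where 5 or more mice had 10 or more counts. The test ran in R 4.3.3 with edgeR 4.0.16, using TMM scaling, a quasi-likelihood fit of the 4 groups, and Benjamini-Hochberg adjustment over all 14364 genes at 0.05. limma 3.58.1 and DESeq2 1.42.0 served as alternatives, with limma on log2(TPM + 1) and log2(TPM + 0.1). CPM values use TMM-scaled library sizes, log2 values a pseudocount of 0.5, and intervals a level of 95%. Pair correlations used 100000 permutations within groups in Python 3.11.15. Gene lists were written from general knowledge, and the members and lists were chosen with earlier results of these data known. Beside the members and Sarm1, named genes were those called in a list, the 2 with the largest change in WT of each list, and the 5 most like the members' mean. Not every gene fulfilling these criteria is given. For T1D in WT the fit was tested on simulated data, with 200 of the 14364 genes altered by 1 on the log2 scale, and 76% to 82.5% of them were found. That change was larger than any member estimate. Smaller changes and outlying mice were not simulated, so this rate does not apply to changes of the members' size. P values of group comparisons set a difference against the spread between mice, estimated over the 4 groups together. Permutation p values of pairs refer to association over mice. Counts of 16938101 to 20135592 per mouse limit only low genes such as Lss and Sarm1. Alternatives covered the test, scaling, filter, unit, ID series, erythroid markers, and leaving out mice.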

Additional observations from a re-analysis of the deposited data

Results flagged for a closer look

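Among 32 groups of values checked for a single distant mouse (8 genes in 4 groups), 2 had one, and chance alone gives about 1 in 20. Both were KO Control mouse A3679, which had the lowest Sqle level of its group at 8.521 CPM, with a gap to the next mouse of 0.773 of the group's range, and the lowest Idi1 level at 5.09 CPM, with a gap of 0.823. Leaving out A3679 moved the change with T1D in mice labelled KO to -0.02 for Sqle and to -0.23 for Idi1, and neither passed the threshold.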

How the results depend on the processing

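Most values kept their direction and their side of the threshold. Changes of sign were of estimates that had not passed, and the cause was not tested. No paired analysis was possible because each mouse has its own ID and none is shared between groups.

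Members called with T1D in WT numbered 4 with limma on log2(TPM + 1) and 4 on log2(TPM + 0.1), 2 with A36 to A39 mice only, and 0 to 1 when single mice were left out. Of all genes, 36%, 34.9%, and 15.5% were called in the first 3. Averaged over genotypes, 1 member was called on log2(TPM + 1) (8.15% of all genes) and 1 with A36 to A39 mice only (3.75%), and 1 between KO T1D and WT T1D there (10.8%). The median member change on log2(TPM + 1) was -0.3622 in WT, 0.3409 for the interaction, and 0.302 for KO against WT in T1D. On log2(TPM + 0.1) it was -0.4101 in WT, -0.2416 averaged over genotypes, 0.3875 for the interaction, and 0.3285 for KO against WT in T1D. For the last comparison it was 0.2889 with A36 to A39 mice only. On TPM the median of all genes moved by -0.24 and -0.29 in WT.

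On log2(TPM + 1), signs turned for Idi1 in WT (-0.08017), Srebf2 in KO (-0.01353), Sqle (-0.1312), Idi1 (-0.05726), and Dhcr7 (-0.1631) averaged over genotypes, Idi1 (0.04581) and Lss (0.1696) for the interaction, Lss for KO against WT in Control (-0.01802), and Idi1 for KO against WT in T1D (0.1686). On log2(TPM + 0.1) the same estimates were -0.1028, -0.01383, -0.1532, -0.06372, -0.1809, 0.07818, 0.2883, -0.01619, and 0.2102.

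With the erythroid score as a covariate, signs turned in WT for Fdps (0.05473), Insig1 (0.3167), and Dhcr7 (0.0732), averaged over genotypes for Sqle (-0.02265), Fdps (0.001157), and Insig1 (0.1423), for the interaction of Fdps (-0.1071) and Insig1 (-0.349), for KO against WT in Control of Srebf2 (0.003488), and for KO against WT in T1D of Hmgcs1 (-0.04354), Fdps (-0.003458), Insig1 (-0.1925), and Dhcr7 (-0.0029). Without A3905 and A3906, they turned in WT for Lss (0.1202), Insig1 (0.04746), Srebf2 (0.01031), and Dhcr7 (0.04971), averaged for Srebf2 (0.0206), for the interaction of Fdps (-0.04804) and Insig1 (-0.1577), and for KO against WT in T1D of Hmgcs1 (-0.00652), Lss (-0.1204), Insig1 (-0.1135), and Dhcr7 (-0.02992).

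With A36 to A39 mice only, signs turned for Sqle (-0.03433) and Dhcr7 (-0.06975) averaged over genotypes, Lss for the interaction (0.09822), and Insig1 for KO against WT in Control (-0.04125). With the series as a term, they turned for Sqle (-0.0006408) and Dhcr7 (-0.04024) averaged over genotypes and for Srebf2 in KO against WT in Control (0.04014).

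Leaving out single mice, estimates crossing 0 ranged in WT from -0.1159 to 0.006696 for Sqle and from -0.1185 to 0.06064 for Lss. In KO they ranged from -0.02038 to 0.097 for Sqle and from -0.02138 to 0.0893 for Srebf2. Averaged over genotypes they ranged from -0.0315 to 0.03254 for Sqle, from -0.005638 to 0.1353 for Idi1, and from -0.0288 to 0.04184 for Dhcr7. For the interaction they ranged from -0.0528 to 0.1103 for Fdps, from -0.1868 to 0.000598 for Lss, and from -0.01307 to 0.224 for Insig1. For KO against WT they ranged in Control from -0.04853 to 0.1335 for Insig1 and from -0.07853 to 0.03503 for Srebf2, and in T1D from -0.1694 to 0.05538 for Idi1 and from -0.05641 to 0.1101 for Lss.

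The number of genes called with T1D in WT was 1002 in DESeq2, 88 without a filter on low counts, 802 with the series as a term, 2211 with A36 to A39 mice only, and 0 with the erythroid score or without A3905 and A3906, against 334. It ran from 0 (without A3767 or A3907) to 1262 (without A3909) when single mice were left out, with 3 without A3903, 7 without A3905, and 963 without A1764.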
